A study of Mus musculus with 2 samples.

Results

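Il33 or Dlk1 supporting cells are 134 cells of the utricle, a balance organ of the inner ear, from mice at postnatal day 2 (P2). They make up 14.5% (exact 95% binomial interval 12.3 to 17.0) of the 923 P2 supporting cells found among 4081 barcodes that passed quality filters. Supporting cells were taken as barcodes with at least 1 Epcam UMI, at least 2 Sox2 UMIs, at most 1 UMI each of Pou4f3 and Atoh1, and under 10 Zpld1 UMIs per 10000. A UMI, or unique molecular identifier, marks 1 captured transcript. Members had at least 3 UMIs of Il33 and Dlk1 together and under 5 Tectb UMIs per 10000, so the cells were chosen by their UMI counts of these 8 genes, which are given below as description only.

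The study profiled sensory epithelium of the utricle of wild-type (WT) mice by droplet-based single-cell RNA sequencing at embryonic day 14 (E14) and at P2, with 1 library at each age. The epithelium was detached with thermolysin, and the study describes harvests from several embryos or pups in general, without tying a number of animals to a library. The P2 library held 57003553 UMIs in 6251 barcodes and the E14 library 122892080 UMIs in 15636 barcodes, and 23 barcodes occurred in both libraries, none of them a member. With 1 library per age no difference has a replicate check, so no test was made, and all intervals below are exact and cover counting error only.

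Supporting cells of the utricle surround the mechanosensory hair cells, secrete the gel and otoconia that load the hair bundles, and are the cells from which new hair cells can arise. Il33 encodes a nuclear cytokine of the IL-1 family that acts, once released, on cells carrying the receptor Il1rl1. Dlk1 is an imprinted gene whose transmembrane protein resembles the ligands of Notch but lacks the domain by which classical ligands activate the receptor. In the GENCODE M21 annotation of GRCm38 Il33 lies on chromosome 19 (29925114 to 29960718, plus strand) and Dlk1 on chromosome 12 (109452823 to 109463336, plus strand), and the counts themselves carry no coordinates.

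Most of the 134 cells were chosen through Il33. Il33 alone was found in 88 cells, Dlk1 alone in 19, and both genes in 27. At least 3 Il33 UMIs were present in 102 cells and at least 3 Dlk1 UMIs in 38, with 10 cells in both counts and 4 cells that reached the limit only by the sum. Il33 ran from 0 over a median of 4 to 38 UMIs per cell, and Dlk1 from 0 over a median of 0 to 44. At the threshold, 26 members held exactly 3 UMIs of the 2 genes, while 56 other supporting cells held 2, 108 held 1 and 624 held none. The Tectb limit kept out 1 cell, 1 member lay between 4 and 5 Tectb UMIs per 10000, and 72 members had no Tectb UMI.

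**Figure D1:**
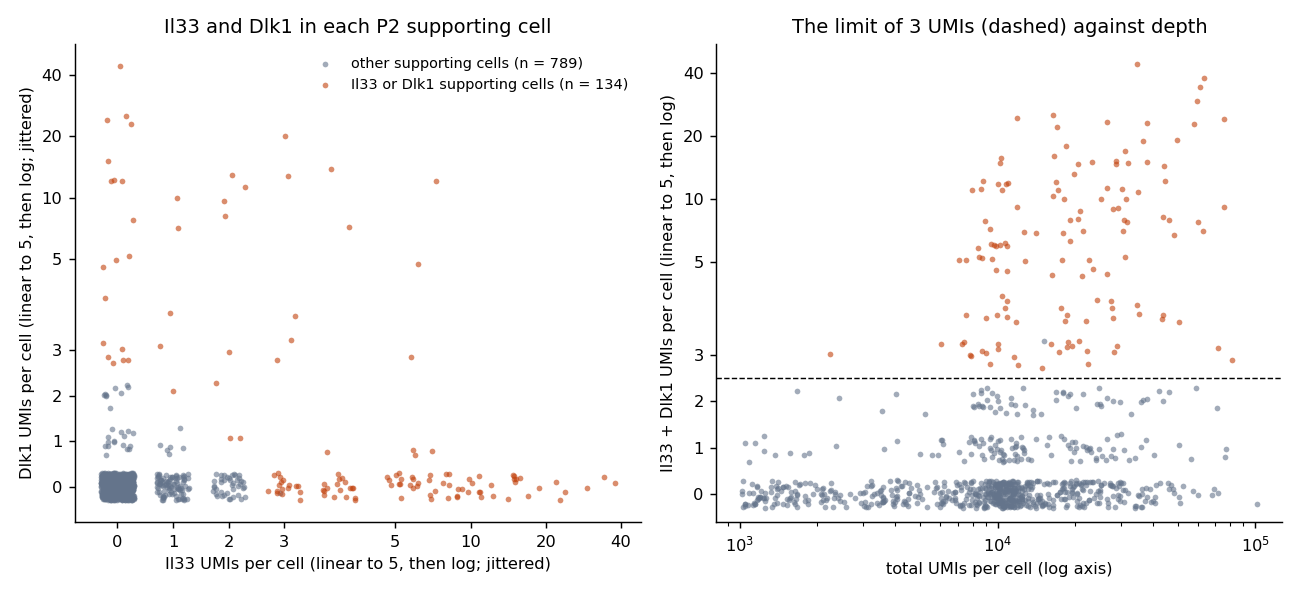
Il33 against Dlk1 UMIs of each of the 923 P2 supporting cells (left) and the sum of both against the total UMIs of the cell (right), with jitter on UMI counts and axes that are linear to 5 and then logarithmic. The 134 members, in orange, spread along the Il33 axis more than along the Dlk1 axis, and 66 of them fall among the 231 deepest cells; the 1 grey point above the dashed limit is the cell kept out by Tectb.

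Depth moved with membership, and the limit is a raw count, whose part in this was not tested. Members had a median of 18518 UMIs (2236 to 81134) and the other 789 supporting cells a median of 10455. In 4 equal bins of supporting cells by depth, members made up 28.6% of the 231 deepest cells (66 cells), then 13.0%, 14.3% and, among the 230 shallowest, 2.17% (5 cells). Shares of cells with a UMI are therefore also given after each cell was thinned to 4000 UMIs, which left out 1 member and 147 other supporting cells. Counts of cells with a UMI are unthinned.

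As selected, Il33 stood at 259 UMIs per 1000000 (CPM, 241 to 277) in the members and at 17.6 CPM in the other supporting cells. Across the other kept barcodes it was 25.4 CPM in 1174 barcodes with at least 2 Pou4f3 or Atoh1 UMIs, called hair cell barcodes here, and 51.3 CPM in 1786 Epcam barcodes with under 2 Sox2 UMIs. After thinning, an Il33 UMI was found in 58.6% of members, 5.45% (3.83 to 7.50) of other supporting cells and 4.53% (3.36 to 5.96) of hair cell barcodes, whose unthinned shares were 85.8%, 17.7% and 17.5% at median depths of 18518, 10455 and 16833 UMIs. The share in the other supporting cells is capped by the rule, and within them it was 0.885% in Tectb-high cells and 7.90% in the remaining cells defined below. Hair cell barcodes are not a clean measure of free RNA, since 66 of the 1174 (5.62%) themselves reached 3 UMIs of Il33 and Dlk1. In the Epcam barcodes with under 2 Sox2 UMIs the Il33 share was 11.8% (14.3% unthinned, median depth 4494 UMIs). Dlk1 stood at 119.8 CPM (108 to 133) in the members, 3.85 CPM in the other supporting cells and 7.52 CPM in hair cell barcodes, with thinned shares of 24.1%, 2.02% and 1.23% and unthinned shares of 34.3%, 3.93% and 3.32%. Il1rl1, the receptor gene of Il33, had no UMI in any of the 4081 kept barcodes; 0 of 134 members allows a share of cells with a UMI of up to 2.24%.

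The members carried the listed markers of macular supporting cells, most of them at lower levels than the other supporting cells. Of 20 genes compared, 6 had a ratio above 1, and the median log2 ratio was -0.40, beside 0.00 over all 10968 genes compared. Otol1, which encodes the otoconial matrix protein otolin, was found in all 134 cells, at 7.66 to 56.2 per 10000 with a median of 23.7, against a median of 16.4 in the other supporting cells. Otog, a component of the gel over the hair bundles, and S100a1, a calcium-binding protein, were found in 99.3% and 100% of the cells, and the otic transcription factors Sox9 and Sox10 in 132 and 126 cells. Without the rule genes Sox2 and Tectb, none of the 20 supporting cell markers was absent, and their summed level was 7954 CPM in members, 9191 CPM in the other supporting cells and 6839 CPM in hair cell barcodes. Without the rule genes Pou4f3 and Atoh1, all 16 hair cell markers had at least 1 UMI, and their summed level was 386 CPM in the members, 521 CPM in the other supporting cells and 6339 CPM in hair cell barcodes. Per cell that sum ran from 0.348 over 3.81 to 13.7 per 10000 in members, against a median of 80.7 in hair cell barcodes. The hair cell list thus separated the classes more than the supporting cell list did, and 31 members carried the single Pou4f3 or Atoh1 UMI that the rule allows.

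Apart from the glia and neuron list, markers of cell types outside the epithelium were low in the members. The sums for transitional and nonsensory epithelium and for the crista were near those of the other supporting cells. Single genes of these lists differed, with 3 of 7 and 2 of 4 genes compared at least 2-fold higher and none lower. Over all 10968 genes compared, 1.33% were higher and 3.09% lower, and in lists this short 1 gene is already a larger share. Gata2 and Enpep, among these higher genes, had levels close to those in the remaining supporting cells defined below. The 13 mesenchyme genes summed to 12.8 CPM, against 3869 CPM in barcodes without an Epcam UMI, with Pou3f4, Tbx18, Postn, Lum and Aspn at 0. The 9 immune genes summed to 2.24 CPM with 6 of them at 0, Ptprc and Csf1r among these, and the 10 endothelial and pericyte genes to 1.92 CPM with 8 at 0. Glia and neuron genes summed to 94.6 CPM, beside 152 CPM in other supporting cells. They were at 109 CPM in hair cell barcodes and 142 CPM in barcodes without an Epcam UMI, so this list separated the classes little. Melanocyte genes summed to 9.59 CPM with 3 of 5 at 0, red blood cell genes to 6.07 CPM (8.09 CPM in other supporting cells) and dark cell genes to 125 CPM (137 CPM). Crista and eminentia genes summed to 383 CPM, beside 382 CPM in the other supporting cells, with Msx2 at 0, and transitional and nonsensory genes to 2909.7 and 2937 CPM (3809.6 CPM in Epcam barcodes with under 2 Sox2 UMIs), with 5 of 15 at 0, Foxi1 and Nox3 among them.

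Compared over 10968 genes with at least 50 UMIs, the members and the other P2 supporting cells differed in both directions. The level was at least 2-fold higher in members for 146 genes (1.33%) and at least 2-fold lower for 339 genes (3.09%), with a median log2 ratio of 0.00. The higher genes included Ltbp1, Slc26a4, Cldn22, Pthlh and Mt3, and the lower genes Hes5, Isl1, Igfbp3, Fabp7 and Vim. The genes named here are those with the 15 highest and 15 lowest ratios after 5 CPM was added to both levels, among genes found in at least 10% of the cells of the higher group.

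Ltbp1, whose product holds latent TGF-beta in the extracellular matrix, was found in 129 of the 134 members. Per cell it ran from 0 over a median of 5.97 to 16.5 per 10000, against a median of 0.929 and a highest value of 13.3 in the other supporting cells. The ranges of single cells overlap, while the pooled levels were 677 CPM (649 to 707) and 182 CPM (174 to 191), a ratio of 3.71 (3.49 to 3.95). After thinning, Ltbp1 was found in 81.2% of members and 43.3% of other supporting cells, at 121 CPM in hair cell barcodes.

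Slc26a4 encodes pendrin, an anion exchanger of the endolymph-facing epithelium that is best known from nonsensory cells. It was found in 95 members, from 0 over a median of 1.18 to 8.59 per 10000, and in 195 other supporting cells, with a median of 0 and a highest value of 14.4. The pooled level was 193 CPM (178 to 209) against 55.4 CPM (51.0 to 60.1), a ratio of 3.49 (3.11 to 3.92). The thinned shares were 42.9% and 12.9%, and the level in hair cell barcodes was 18.9 CPM. Cldn22, a tight junction claudin, gave 119.8 against 41.7 CPM (2.87-fold), and Rbpms, an RNA-binding protein, 91.7 against 28.8 CPM (3.18-fold). Both were spread over many members, with UMIs in 61.2% and 66.4% of the cells and medians of 0.596 and 0.615 per 10000. With a limit of 1 Sox2 UMI in place of 2 their ratios were 1.67 and 1.90.

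Prss56, a secreted serine protease, had the highest ratio, 15.0 (9.06 to 26.1), but was carried by few cells. Its 86 UMIs lay in 22 of the 134 members (16.4%), 15.1% of them in 1 cell, against 19 UMIs in 11 other supporting cells. Penk, which encodes the precursor of enkephalin peptides, gave 51.8 against 9.73 CPM, a ratio of 5.32 (4.13 to 6.89), in 25 members with 21.0% of the UMIs in 1 cell. For both genes the median member had no UMI. The ratio of Penk was 2.06 for members with at least 3 Il33 UMIs, and that of Prss56 was 3.85 for members with at least 3 Dlk1 UMIs. Pthlh, the parathyroid hormone-related peptide, was found in 45 members, at 22.7 against 4.82 CPM (4.71-fold).

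Metallothioneins, which bind zinc and copper, were higher in the members for each of the 3 genes compared. Mt3 gave 33.6 against 9.05 CPM (ratio 3.71, 2.78 to 4.95), Mt1 54.6 against 17.7 CPM (3.08, 2.49 to 3.82) and Mt2 15.0 against 3.95 CPM (3.80, 2.45 to 5.93). As a mean over cells in place of pooled UMIs, the ratio of Mt1 was 1.78. Ifitm3, an interferon-induced membrane protein, was at 53.4 against 16.3 CPM (3.28-fold), and Dhx58, a sensor of viral RNA, at 17.6 against 3.47 CPM (5.07-fold), with 14.5% of the Dhx58 UMIs in 1 member. The ratio of Dhx58 was 2.90 with a limit of 3 per 10000 and 2.71 with 1 Sox2 UMI, and that of Mt3 was 2.37 with 1 Sox2 UMI. After thinning, Dhx58 gave 3.22 and Ifitm3 2.05.

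Fgf12, Fgf14, Kcnip4 and Rgs9 were also among the 15 higher genes. The intracellular FGF homologous factors Fgf12 and Fgf14, which bind sodium channels rather than FGF receptors, gave ratios of 5.33 (3.39 to 8.50; 16.9 against 3.18 CPM) and 4.06 (2.87 to 5.75; 24.6 against 6.07 CPM). Kcnip4, a potassium channel-interacting protein, gave 3.79 (28.1 against 7.42 CPM), and Rgs9, a regulator of G protein signalling, 3.09 (51.1 against 16.6 CPM). These genes were found in 29.1% to 55.2% of the members. For members with at least 3 Dlk1 UMIs the ratios of Fgf14 and Kcnip4 were 1.36 and 1.27, and Fgf12 ranged from 3.26 with 1 Sox2 UMI to 8.85 after thinning. Fgf12 was at 11.4 CPM in hair cell barcodes, between both classes of supporting cells.

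**Figure D2:**
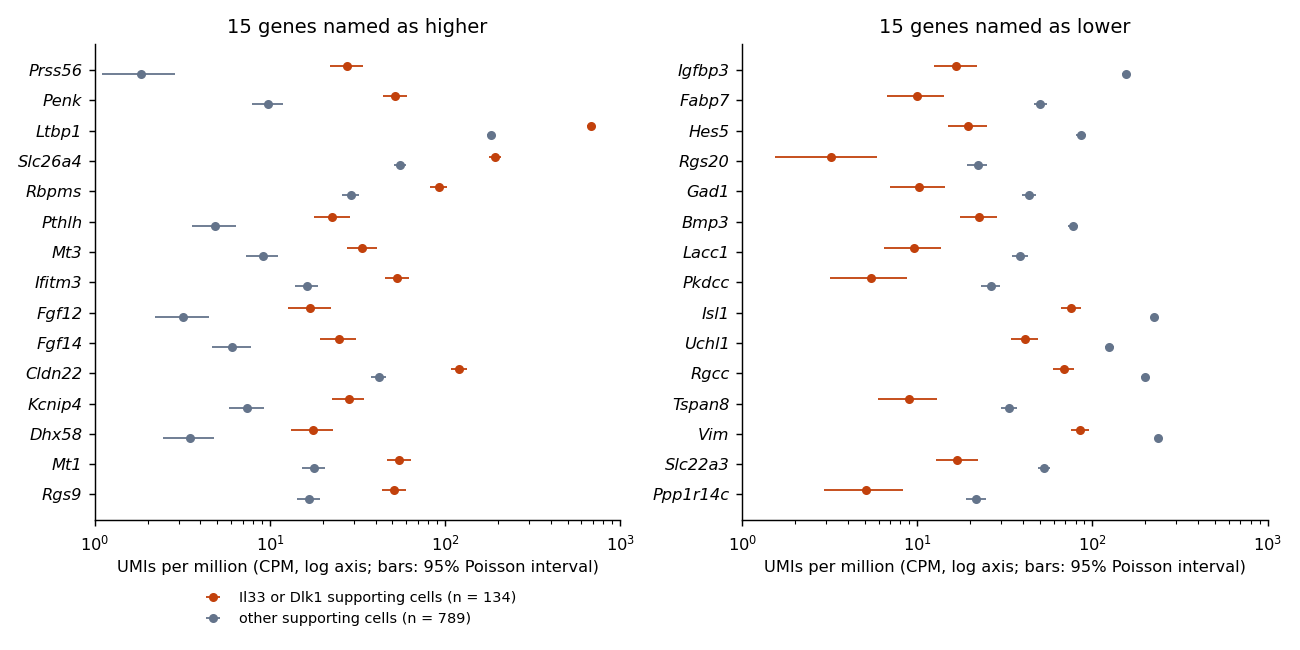
Pooled level of the 15 genes named as higher (left) and the 15 named as lower (right) in 134 Il33 or Dlk1 supporting cells (orange) and 789 other P2 supporting cells (grey), in CPM on a log axis with 95% Poisson intervals. The widest gap among the higher genes is that of Prss56 (27.5 against 1.83 CPM) and among the lower genes that of Igfbp3 (16.6 against 155 CPM).

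The lower genes were led by Igfbp3, a secreted protein that binds insulin-like growth factors. It was found in 24 members, with a median of 0 and a highest value of 2.68 per 10000, and in 364 other supporting cells, with a highest value of 16.7. The levels were 16.6 CPM (12.4 to 21.8) and 155 CPM (148 to 163), a ratio of 0.107 (0.0795 to 0.141), and the thinned shares 5.26% and 35.7%. Members therefore lay in the lower part of the range of the other supporting cells. The ratio of Igfbp3 was 0.236 with a limit of 2 Il33 and Dlk1 UMIs and 0.0444 with a limit of 5.

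Hes5, a target gene of Notch that represses hair cell genes in supporting cells, was at 19.5 CPM in the members and 85.5 CPM in the others, a ratio of 0.228 (0.173 to 0.296). It was found in 22 members, and 18.0% of its UMIs were in 1 of them. Fabp7, a fatty acid-binding protein of glia and glia-like cells, gave 9.91 against 50.4 CPM (0.197, 0.132 to 0.283). Gad1, which makes GABA, gave 10.2 against 43.3 CPM (0.236), and Bmp3, an atypical member of the BMP family, 22.4 against 77.4 CPM (0.289). Before thinning Bmp3 was found in 17.9% of members and 15.3% of the others, and after thinning in 6.02% and 10.4%. A single member held 27.1% of the Bmp3 UMIs of the members. Hair cell barcodes, at 45.2 CPM Hes5 and 28.4 CPM Gad1, lay between both classes of supporting cells. The ratio of Hes5 was 0.386 with a limit of 2 UMIs, 0.148 with 5 and 0.382 after thinning. That of Fabp7 ranged from 0.113 after thinning to 0.335 without Tectb-high cells. With a limit of 5 the ratio of Gad1 was 0.0997 and that of Bmp3 0.180.

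Isl1, a LIM homeobox transcription factor, had UMIs in 94 members and 453 others before thinning. After thinning it was found in 27.1% of members and 41.3% of other supporting cells. Per cell it reached 5.79 per 10000 in members and 22.5 in the others, with medians of 0.623 and 0.806, and the pooled ratio was 0.338 (0.295 to 0.387; 75.7 against 224 CPM). Without the Tectb-high cells in the comparison the ratio of Isl1 was 0.691, and that of Ppp1r14c, a phosphatase inhibitor, moved from 0.236 to 0.619. Vim, an intermediate filament gene, gave 85.0 against 237 CPM (0.359), Uchl1, a deubiquitinase, 40.9 against 125 CPM (0.328), and Rgcc, a cell cycle regulator, 68.7 against 199 CPM (0.346). The remaining named genes were Rgs20, a regulator of G protein signalling (0.145), Pkdcc, a secreted kinase (0.207), Lacc1, an enzyme of purine nucleosides (0.248), Tspan8, a tetraspanin (0.268), and Slc22a3, a transporter of organic cations (0.320), and they were found in 5.97% to 22.4% of the members. Over all settings tried, the ratio of Rgs20 ranged from 0.0779 to 0.338, Slc22a3 from 0.0889 to 0.397, Tspan8 from 0.131 to 0.353, Pkdcc from 0.135 to 0.318, Uchl1 from 0.207 to 0.435 and Rgcc from 0.213 to 0.437.

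Among genes of retinoic acid handling and of the striola, the central stripe of the macula, those at least 2-fold higher in the members act in retinoic acid synthesis, its reception and hair cell orientation. Of 16 genes compared, 3 were at least 2-fold higher (Aldh1a3, Emx2, Rarb) and 2 lower (Isl1, Ocm), and the median log2 ratio was 0.28, beside 0.00, 1.33% higher and 3.09% lower genes over all genes compared. Aldh1a3, which synthesizes retinoic acid, had at least 1 UMI in each of the 134 members, from 0.356 over a median of 8.85 to 24.9 per 10000, against a median of 2.73 in the other supporting cells. Its pooled levels were 908 and 391 CPM, a ratio of 2.32 (2.21 to 2.44). Rdh10, which oxidizes retinol, was at 193 against 163 CPM (1.19-fold). Rarb, a retinoic acid receptor that is itself induced by retinoic acid, gave 45.4 against 21.8 CPM (2.08, 1.68 to 2.58), and Emx2, a homeobox gene of hair cell orientation, 62.3 against 26.5 CPM (2.35, 1.95 to 2.84). Among 35 regional transcription factors 3 were higher (Emx2, Gata2, Lmx1a) and 6 lower (Irx2, Irx3, Isl1, Nr2f1, Pax2, Sall1), with a median of 0.13. Lmx1a gave 20.1 against 8.67 CPM and Gata2 39.6 against 18.1 CPM, while Nr2f1 had 1 UMI and Irx3 none in the members, against 58 and 57 UMIs in the others.

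The list counts that follow stand beside 1.33% higher and 3.09% lower genes among all 10968 genes, and in lists this short 1 gene is already a larger share. The transitional and nonsensory marker list held 3 higher genes of 7 compared, Slc26a4, Lmx1a and Enpep, an aminopeptidase (11.5 against 4.82 CPM), and no lower gene. The crista and eminentia list held 2 of 4, Gata2 and Bmp4, a BMP ligand (7.67 against 2.99 CPM). On the other side, the macular supporting cell list had 3 lower genes of 20 compared (Anxa2, Hes5, S100b) and a median of -0.40, and the hair cell list 5 lower of 11 (Gfi1, Pvalb, Ocm, Calb2, Rasd2). Lower genes also made up 3 of 3 in the mesenchyme list (Col1a2, Otor, Dcn), 2 of 5 in the glia and neuron list (Fabp7, Tubb3), 1 of 5 in the dark cell list (Rbm24) and 1 of 1 in the melanocyte list (Pmel). The 1 red blood cell gene compared differed by less than 2-fold, and no immune or endothelial gene reached 50 UMIs. The part of RNA from other cells in these differences was not tested.

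In the Notch and IL-1 family lists no gene was at least 2-fold higher, and 1 of 9, 2 of 19 and 1 of 4 genes were lower, beside 3.09% lower genes overall. Among 9 Notch ligands and receptors none was higher and 1 was lower, Dlk2, the paralog of Dlk1 (8.31 against 17.8 CPM), with a median of 0.04. Notch1, the main receptor, was at 195 against 174 CPM, Mfap2, a microfibril protein, at 1068 against 1037 CPM and Jag1, a ligand of supporting cells, at 32.9 against 57.7 CPM (0.570, 0.458 to 0.704). Of 19 Notch targets and modifiers 2 were lower, Hes5 and Mfng, a Fringe enzyme (14.7 against 41.9 CPM), with a median of -0.22, while Hey1 and Hey2, also targets of Notch, were at 134 against 119 CPM and 79.3 against 61.9 CPM.

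In the IL-1 family 4 genes were compared and 1 was lower, Il18, a cytokine (4 UMIs in the members and 80 in the others), with a median of -0.01. Irak1, a kinase of the pathway, was at 79.9 against 71.5 CPM, and Il1rap, the co-receptor, had 9 UMIs in the members and 15 in the others. Of 12 NF-kB targets, chemokines and interferon genes 1 was higher, Nfkb2 (7.99 against 2.99 CPM), and the chemokine genes Cxcl12 and Cxcl14 were lower, with a median of 0.16. Of 8 antigen presentation and complement genes 1 was higher, Cd59a, an inhibitor of complement (10.2 against 4.53 CPM), with a median of -0.10. Of 19 imprinted genes none was higher and H19 was lower (3 and 108 UMIs), with a median of -0.31. Meg3, the noncoding RNA of the Dlk1 domain, was at 607 against 489 CPM (1.24, 1.18 to 1.31).

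Among genes at least 2-fold apart, BMP ligands went in both directions. The Wnt target and inhibitor list held higher genes only, and the Wnt ligand and receptor list lower genes only. Among 15 BMP ligands and receptors Bmp2 (27.5 against 8.96 CPM, 3.07-fold) and Bmp4 were higher and Bmp3 and Bmp6 lower, with a median of 0.03, and none of 10 BMP targets and antagonists differed 2-fold (median 0.05). Of 15 Wnt targets and inhibitors 3 were higher and none lower, with a median of 0.24. These were Axin2, a feedback target of Wnt signalling (55.9 against 26.9 CPM), Dkk2 (28.8 against 8.67 CPM) and Wif1 (2.76-fold, 45 UMIs in the members), both secreted modulators of Wnt. Sfrp1, another secreted antagonist, was at 1890.3 against 1304 CPM (1.45-fold). Of 19 Wnt ligands and receptors 2 were lower, Lgr5, the R-spondin receptor (8.63 against 18.9 CPM), and Rspo3 (5 and 80 UMIs), with a median of -0.12.

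Of 20 FGF pathway genes Fgf12, Fgf14 and Fgfr2 were higher and Fgfr4 lower, with a median of 0.36, the highest among the pathway lists. Of 11 genes of the IGF system and neurotrophins Igfbp4 was higher (656 against 261 CPM, 2.51-fold, with UMIs in all 134 members and a median of 5.56 per 10000 against 1.46), and Igfbp3 and Ntf3, a neurotrophin, lower (median 0.05). Of 26 maturation and glia-like genes Apoe, Mt1, Mt2, Mt3 and Ptgds were higher and Fabp7, S100a6 and S100b lower (median -0.22). Apoe, an apolipoprotein, was at 1247 against 511 CPM and Ptgds, prostaglandin D synthase, at 184 against 79.9 CPM. Of 14 otoconia and gel matrix genes Spp1 and Atp2b2 were lower (median -0.19), and Oc90, otoconin-90, was at 1627 against 1863 CPM. Of 24 connexins, claudins and cadherins Cldn4 was higher and Cldn14 lower (median -0.01). None of 21 collagen and basement membrane genes differed 2-fold (median -0.11). Of 12 cytoskeleton genes Vim and Tubb3 were lower (median -0.57), of 19 ion transport genes Slc26a4 was higher and Aqp5 lower (median -0.01), and of 24 guidance genes Sema3c was higher (median -0.23). Among 13 S and G2/M phase genes Top2a was higher (39 UMIs in the members, 7.46% of the cells) and Mki67 had 17 UMIs in 3.73% of the cells (median 0.04). Among 12 cell cycle inhibitors Cdkn1a was lower (34.8 against 76.8 CPM, median -0.10), and none of 16 AP-1 and dissociation stress genes differed 2-fold (median 0.14).

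**Figure D3:**
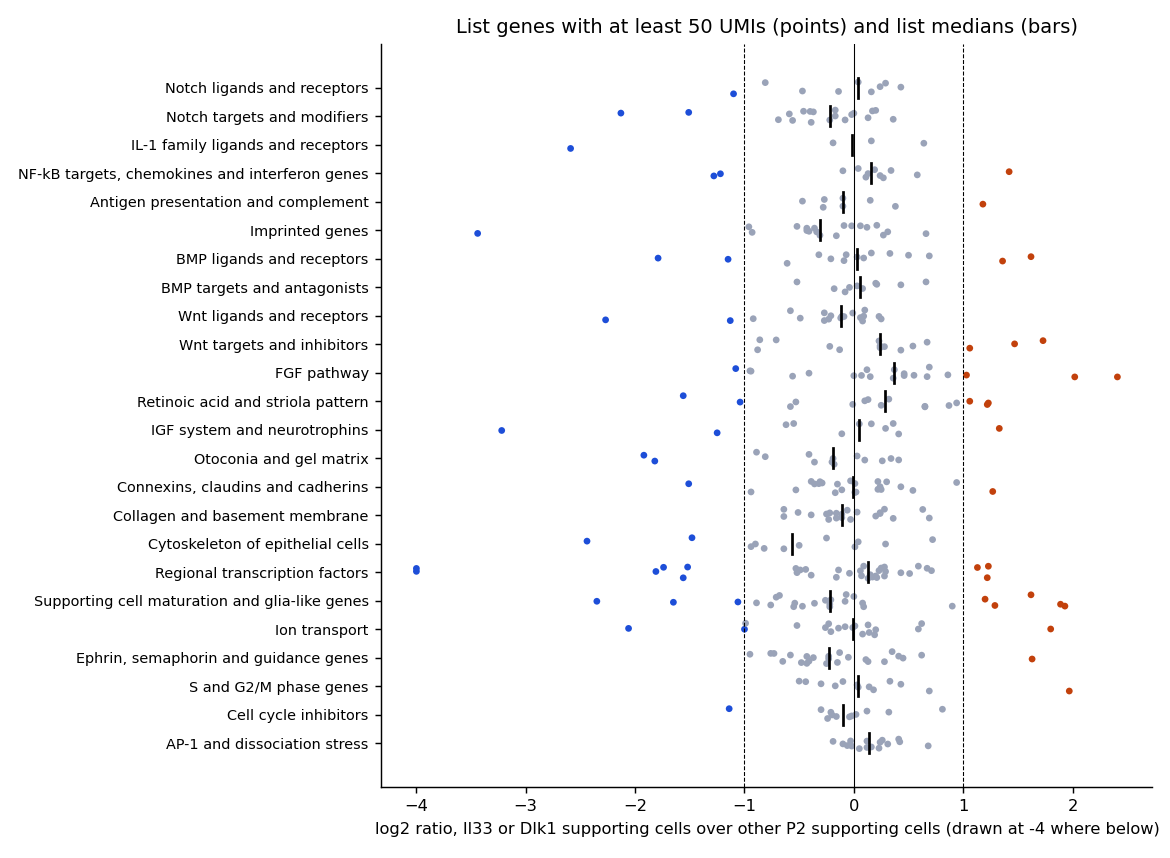
Log2 ratio of Il33 or Dlk1 supporting cells over other P2 supporting cells for each gene with at least 50 UMIs in the 24 pathway lists, with list medians as bars and dashed lines at 2-fold; orange points are at least 2-fold higher and blue points at least 2-fold lower. Most points of every list lie between the dashed lines, and the list medians run from -0.57 (cytoskeleton) to 0.36 (FGF pathway); the 2 points at -4 are Nr2f1 and Irx3, whose ratios lie below that value.

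The other supporting cells are not uniform, so the members were set beside 2 classes cut from them. Tectb-high supporting cells (166 cells with at least 5 Tectb UMIs per 10000, a gene of the gel matrix) are kept out by the rule. Over 8489 genes compared, 408 (4.81%) were at least 2-fold higher in the members and 335 (3.95%) lower. Against all other supporting cells, 146 genes (1.33%) were higher and 339 (3.09%) lower. The Tectb-high cells held fewer UMIs in total (1784375 against 10381649), which widens their counting error. The 5 named as higher were Pla2g7, a lipase that degrades platelet-activating factor (657 against 45.4 CPM, 14.5-fold), Apoe (13.4-fold, with UMIs in 97.0% and 53.6% of the cells), Oc90 (1627 against 132 CPM, 12.3-fold), Igfbp4 (656 against 53.8 CPM, 12.2-fold) and Slc26a4 (193 against 13.5 CPM, 14.4-fold). The 5 named as lower were Igfbp3 (16.6 against 402 CPM), Fabp7 (9.91 against 151 CPM), Isl1 (75.7 against 775 CPM), Itga8, an integrin (5.11 against 86.3 CPM), and Ppp1r14c (5.11 against 86.3 CPM). Isl1 was found after thinning in 27.1% of the members and 89.4% of the Tectb-high cells, and its median per cell was 0.623 and 6.62 per 10000.

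Gjb6 or Fgf3 supporting cells were 238 other supporting cells under the Tectb limit. They held at least 3 UMIs of the connexin gene Gjb6 and the ligand gene Fgf3 together. Their depth was closer to that of the members, with a median of 13721 UMIs. Over 9595 genes, 204 (2.13%) were at least 2-fold higher in the members and 208 (2.17%) lower. Gjb6 and Fgf3 define this class and were not left out as the rule genes were, so any difference in them follows from the choice. Higher were Penk (162 UMIs against 3, ratio 78.6 with a counting interval of 26.4 to 385), Fam19a1, a secreted chemokine-like protein (60.1 against 3.73 CPM), Gchfr, a regulator of tetrahydrobiopterin synthesis (58.8 against 3.95 CPM), Tmem176a, a membrane protein (113 against 12.7 CPM), and Slc26a4 (193 against 27.7 CPM, 6.99-fold). Penk had UMIs in only 18.7% of the members, and its ratio was 5.32 against all other supporting cells, of which 5.07% had a Penk UMI. Lower were Igfbp3 (0.125), Hes5 (19.5 against 107 CPM, 0.182), Rgs20 (0.105), Mfng (14.7 against 66.5 CPM, 0.221) and Gad1 (0.203). Slc26a4 was thus among the 5 higher genes, and Igfbp3 among the 5 lower, against both classes.

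The 385 remaining supporting cells, with under 3 UMIs of Il33 and Dlk1, low Tectb and under 3 UMIs of Gjb6 and Fgf3, lay nearest to the members for several of these genes. Gata2 was at 39.6 CPM (33.0 to 47.2) in members and 38.4 CPM in the remaining cells, Wif1 at 14.4 and 12.1 CPM, and Enpep at 11.5 and 10.9 CPM, with Poisson intervals that overlap. Slc26a4 (193 against 105 CPM), Ltbp1 (677 against 250.4 CPM), Aldh1a3 (908 against 531 CPM) and Igfbp4 (656 against 390 CPM) were higher in the members than in these cells too, and Hes5 (19.5 against 43.1 CPM), Fabp7 (9.91 against 21.0 CPM) and Igfbp3 (16.6 against 71.8 CPM) lower. Isl1 was at 75.7 and 83.1 CPM.

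**Figure D4:**
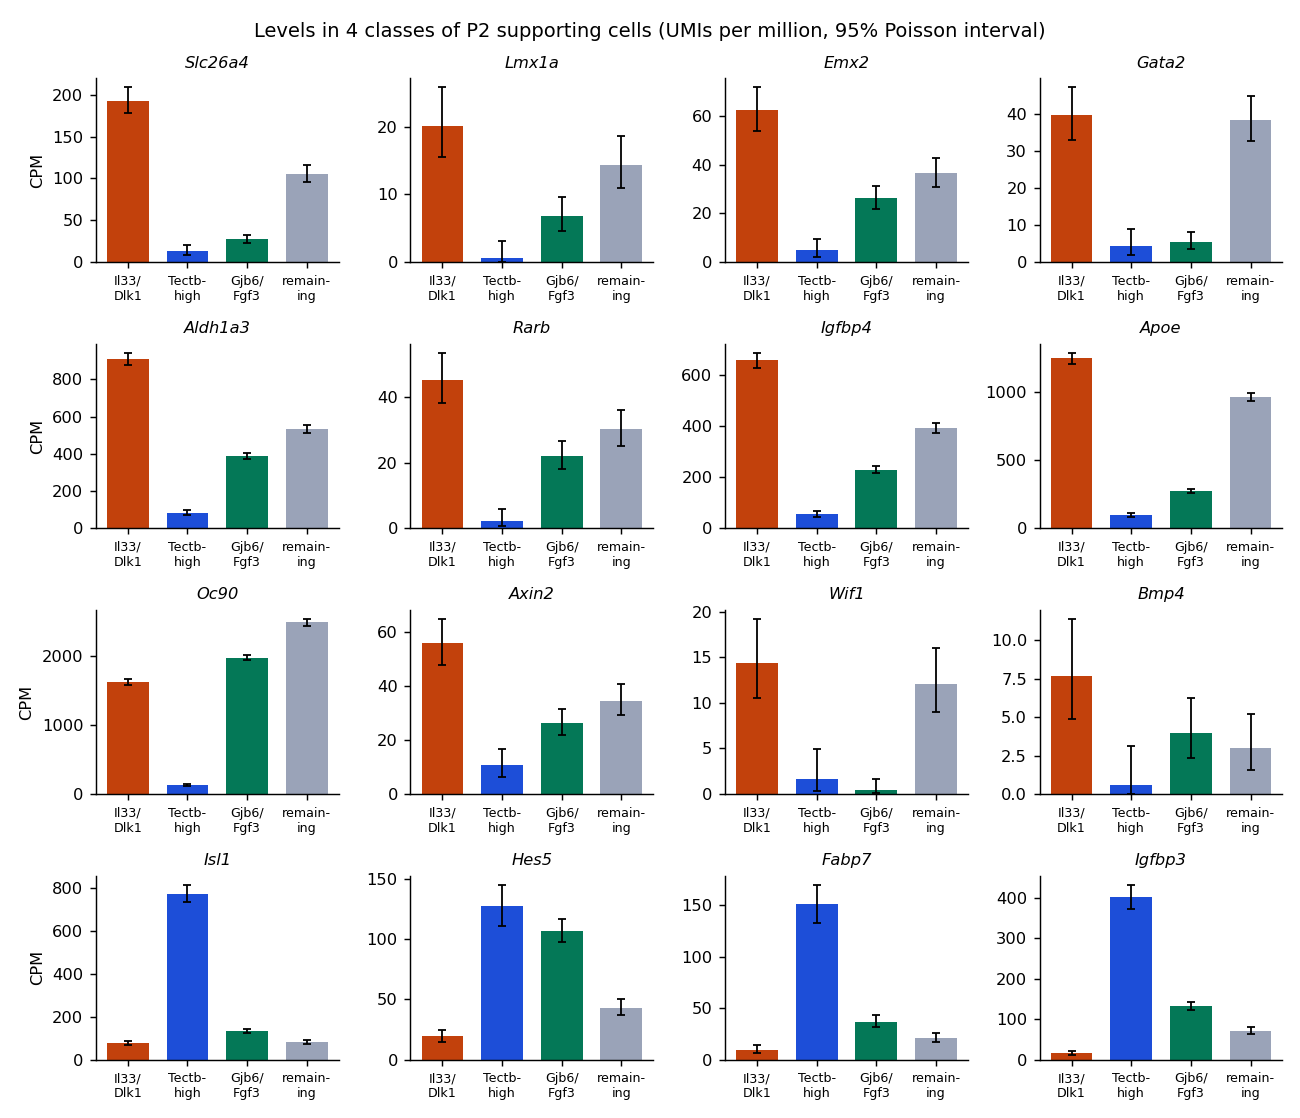
Pooled level in CPM of 16 genes in Il33 or Dlk1 supporting cells (n = 134), Tectb-high cells (n = 166), Gjb6 or Fgf3 cells (n = 238) and the remaining supporting cells (n = 385) at P2, with 95% Poisson intervals; each axis starts at 0. Slc26a4 shows 193, 13.5, 27.7 and 105 CPM in that order, and Igfbp3 16.6, 402, 133 and 71.8 CPM.

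Among supporting cells under the Tectb limit, levels of several genes differed with the number of Il33 and Dlk1 UMIs. Ltbp1 was at 169 CPM in 476 cells with none, 223 CPM in 93 cells with 1, 358 CPM in 54 cells with 2, 445 CPM in 26 cells with 3, 480.4 CPM in 36 cells with 4 to 5, 744 CPM in 33 cells with 6 to 10 and 856 CPM in 39 cells with more than 10. Aldh1a3 ran from 411 CPM with none over 646 CPM with 2 and 727 CPM with 3 to 1093 CPM with 6 to 10 and 938 CPM with more than 10. Igfbp3 was at 111, 76.5, 105, 28.6, 36.7, 9.71 and 3.61 CPM in the bins given for Ltbp1. In the same bins Hes5 was at 67.1, 116, 76.9, 24.5, 32.5, 23.1 and 6.32 CPM. Isl1 was at 119, 88.4, 82.9, 116, 89.0, 54.6 and 65.0 CPM. Slc26a4 was at 248 CPM with 6 to 10 and 182 CPM with more than 10. Cells just outside the limit, with 2 UMIs, lay between the cells with none and those with 3 for Ltbp1, Aldh1a3 and Slc26a4 (55.6, 112 and 159 CPM), but not for Igfbp4 (258, 470.5 and 388 CPM) or Hes5. The median depth rose alongside, from 10351 UMIs in cells with none to 26483 in cells with more than 10, and its part in these values was not tested.

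Members also lay near each other in genes that the rule did not use. Among the 15 nearest supporting cells of each member, in 20 principal components computed without the 8 rule genes, 51.3% were members, while members are 14.5% of all supporting cells. The share was 10.6% around the other supporting cells, 0.884% around Tectb-high cells and 8.77% around Gjb6 or Fgf3 cells. It was not computed for the 385 remaining cells alone, the class nearest to the members for several genes. The Tectb-high cells and the Gjb6 or Fgf3 cells both lie below the 10.6% of all others, so the share around the remaining cells lies above it. The 14.5% also counts Tectb-high cells, which the rule keeps out of the members. At least 50.0% of the neighbours were members for 82 of the 134 cells, and none for 9 cells. After thinning to 4000 UMIs the share was 39.3% of neighbours, beside 17.2% members among the 775 cells kept. The neighbours of a member were thus members more often than the neighbours of other supporting cells, and all principal components come from the same library.

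Within the members, cells with Il33 alone (88) and cells with Dlk1 alone (19) were compared over 6233 genes. The level was at least 2-fold higher in the Il33 cells for 204 genes (3.27%) and lower for 81 (1.30%), and the 5 genes named in each direction follow. Sp5, a transcription factor and target of Wnt signalling, had 204 UMIs in 56 of the 88 Il33 cells (99.5 CPM) and 2 UMIs in 2 of the 19 Dlk1 cells (4.58 CPM), a ratio of 21.7 (5.93 to 181). Prss56 had 79 UMIs in 20 Il33 cells and none in the Dlk1 cells, at least 5.61-fold higher against a floor of 3 counts over the group, and Igf1, a growth factor, had 52 UMIs in 23 Il33 cells and none in the Dlk1 cells, at least 3.69-fold higher. Kctd12, an auxiliary subunit of GABA-B receptors, had 92 UMIs against 1, and Cox4i2, an isoform of a respiratory chain subunit, 85 against 1. Cells with both genes, at 23.3 CPM Sp5 and 10.9 CPM Prss56, lay between.

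In the other direction, Penk had 6 UMIs in 5 of the 88 Il33 cells (2.93 CPM) and 80 UMIs in 11 of the 19 Dlk1 cells (183 CPM), and 76 UMIs in 9 of the 27 cells with both (118 CPM). Cnmd, chondromodulin, was at 12.7 CPM in Il33 cells and 105 CPM in Dlk1 cells (8.31-fold), Cdkn1c, an imprinted cell cycle inhibitor, at 153 and 605 CPM (3.95-fold), Pou3f3, a neural transcription factor, at 14.6 and 64.2 CPM (4.38-fold), and Socs3, a feedback inhibitor of cytokine signalling, at 81.9 and 279.5 CPM (3.41-fold). Few cells carry the sums of the Dlk1 group, since 1 cell held 22.5% of its Penk UMIs, 26.1% of its Cdkn1c UMIs and 38.5% of its Socs3 UMIs. Oc90 was at 2126 CPM in Il33 cells, 872 CPM in cells with both and 394 CPM in Dlk1 cells, with medians of 8.61, 3.71 and 1.15 per 10000. Aldh1a3 was alike in level, at 908, 943 and 859 CPM, and the ratio of Il33 over Dlk1 cells was 1.06 (0.945 to 1.18). Median depths were 17769, 19134 and 16780 UMIs.

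**Figure D5:**
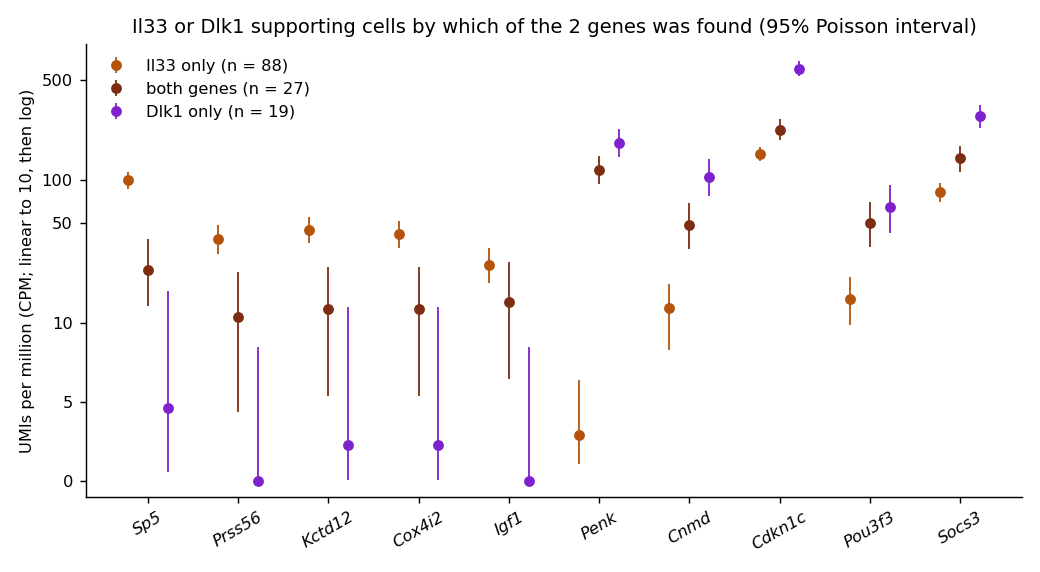
Pooled level of 10 named genes in members with Il33 only (n = 88), both genes (n = 27) and Dlk1 only (n = 19), in CPM on an axis that is linear to 10 and then logarithmic, with 95% Poisson intervals. Sp5, Prss56, Kctd12, Cox4i2 and Igf1 are highest in Il33 cells, Penk, Cnmd, Cdkn1c, Pou3f3 and Socs3 are highest in Dlk1 cells, and cells with both genes lie between for all 10.

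The Sox2 limit also cuts through similar barcodes. Among the Epcam barcodes with under 2 Sox2 UMIs, 94 met the same Il33, Dlk1 and Tectb limits, at a median of 11894 UMIs. They too held Slc26a4 (223 against 193 CPM in the members), Ltbp1 (572 against 677 CPM), Aldh1a3 (1158 against 908 CPM) and Emx2 (84.3 against 62.3 CPM), while Prss56 (99.5 against 27.5 CPM), Mt3 (122 against 33.6 CPM), Ifitm3 (134 against 53.4 CPM) and Enpep (58.9 against 11.5 CPM) were higher. Kcnip4 (6.34 against 28.1 CPM), Mt1 (17.1 against 54.6 CPM), Dkk2 (0.634 against 28.8 CPM) and Hes5 (1.90 against 19.5 CPM) were lower in these barcodes than in the members.

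At E14 the same limits took 143 of 640 supporting cells (22.3%, 19.2 to 25.8), but mostly through Dlk1. Dlk1 alone was found in 94 of these cells, Il33 alone in 17 and both in 32, and the levels were 438 CPM Dlk1 and 41.2 CPM Il33, beside 119.8 and 259 CPM in the P2 members. E14 Tectb-high cells, which the rule keeps out, also held Dlk1, at 253 CPM. Over 10838 genes compared at E14, 83 (0.766%) were at least 2-fold higher in these cells than in the other E14 supporting cells and 157 (1.45%) lower, with a median log2 ratio of -0.11. Igfbp3 gave 0.314 at E14, Hes5 0.454, Isl1 0.409 and Slc22a3 0.325, while Ltbp1 gave 1.86, Slc26a4 1.75 and Penk 1.20. Kcnip4 gave 3.34 and Ifitm3 2.65. The counting intervals of Pthlh (0.828 to 1.14), Mt3 (0.858 to 1.54), Fgf14 (0.720 to 1.77) and Rgs9 (0.934 to 1.60) include 1 at E14. The 5 genes named as higher at E14 itself were Aldh1a1, which makes retinoic acid (30.4 against 4.85 CPM), Wnt4, a Wnt ligand (35.7 against 6.70 CPM), Smoc2, a matrix protein (57.7 against 15.4 CPM), Egfl7, a secreted factor (44.7 against 11.6 CPM), and Ptgds (249 against 80.7 CPM). For each of these genes 1 cell held 15.8% to 21.6% of the UMIs, and Aldh1a1 and Wnt4 were found in 16.8% and 14.7% of the cells. The E14 cells under the rule were deeper, at a median of 23128 UMIs (highest 218425) against 9182 in the other E14 supporting cells. The 5 named as lower were Igfbp3, Bmp3 (0.309), Rprm (0.299), Prss35 (0.268) and Cyp26b1, which degrades retinoic acid (0.316), of which Igfbp3 and Bmp3 are named at P2 as well. Markers of other cell types differed at E14 too. The red blood cell list summed to 779 CPM in these cells and 5075 CPM in the other supporting cells, the mesenchyme list to 2182 and 1422 CPM (with Col1a1, Lum and Ogn at least 2-fold higher), the endothelium and pericyte list to 36.9 and 12.8 CPM, the transitional and nonsensory list to 5677 and 3927 CPM and the hair cell list to 450.1 and 285 CPM. Of 26 S and G2/M phase genes 24 had a ratio above 1, with none at 2-fold. Their median log2 ratio was 0.30, beside -0.11 over all genes compared. The part of these cell types in the E14 values was not tested. Age, library and the mix of Il33 and Dlk1 cells cannot be told apart in these values.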

How the data were processed

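Sensory epithelia of E14 and P2 utricles were profiled with the 10x Genomics 3' kit v3.1. The authors deposited raw UMI counts per gene and barcode made with Cell Ranger 3.1.0, and their Seurat 4.1.1 steps are not contained in these counts. The paper gives GRCm39 and the labels also name mm10, which was not settled here. Of the gene IDs, 30934 of 31053 (99.6%) were found in GENCODE M21, whose GRCm38 coordinates are given.

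A barcode had to hold 500 genes or more, 1000 UMIs or more and no more than 15% of its UMIs on mitochondrial genes. Doublets were kept as well, since the rule has no doublet step. Classes are ranges of UMI counts and not clusters. The cells and all lists were chosen with earlier results of these data known. Levels are pooled UMIs per 1000000 (CPM) with exact 95% Poisson intervals, ratios have exact conditional binomial intervals and shares exact binomial intervals. A gene was compared with at least 50 UMIs over both groups, the 8 rule genes were left out, and 2-fold stood in for a call. Against a group without a count, 3 counts served as the floor.

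Named genes were the 15 highest and 15 lowest ratios with 5 CPM added (5 and 5 for the classes and within the members), among genes found in at least 10% of the cells of the higher group and without mitochondrial, ribosomal, haemoglobin and unnamed gene models. Of each list, the members at least 2-fold apart and the 3 with the highest level could be named. Other genes named for comparison (Sox9, Sox10, Il1rap, Jag1, Hey1, Hey2, Meg3, Sfrp1, Mki67 and those of the Sox2 comparison) were chosen after their values were seen. The 35 lists comprise 11 of cell type markers and 24 of pathways. Neighbours were found in log-normalized counts of 2000 variable genes.

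The scripts for levels, ratios and neighbours were tested on simulated data. Alternatives changed the limits of the rule, depth, doublets, the filter on genes and the neighbour settings. Counts were read and pooled in Python 3.11.15 (pandas 2.3.3, numpy 2.4.6), intervals came from scipy 1.17.1, neighbours from scikit-learn 1.9.0, doublet scores from scanpy 1.11.5 (Scrublet) and plots from matplotlib 3.10.9.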

Additional observations from a re-analysis of the deposited data

How the results depend on the processing

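The number of cells was 188 with a limit of 2 UMIs of Il33 and Dlk1, 87 with 5 UMIs, 97 with 3 per 10000, 161 with 1 Sox2 UMI and 103 with no Pou4f3 or Atoh1 UMI, against 134. Genes at least 2-fold higher numbered 89 with 1 Sox2 UMI, 79 after thinning, 268 and 49 with at least 20 and 200 UMIs per gene, and 248 for the members with at least 3 Dlk1 UMIs, against 146. Lower genes numbered 513 as a mean over cells, 651 and 95 with at least 20 and 200 UMIs per gene, and 711 for the members with at least 3 Dlk1 UMIs, against 339. A lower minimum admits more genes and a higher one fewer; for the other settings the cause was not tested. The share of neighbours was 35.9% with 3 per 10000 and 39.3% after thinning, against 51.3%. The sets by Il33 or Dlk1 UMIs and the thinned neighbours were chosen after seeing the data. Of 450 ratios of the 30 named genes under 15 settings, 367 stayed within the counting interval, 83 moved, none changed direction and 443 stayed at least 2-fold. The 7 others were Fgf14 (1.36) and Kcnip4 (1.27) for members with at least 3 Dlk1 UMIs, Cldn22 (1.67) and Rbpms (1.90) with 1 Sox2 UMI, Mt1 (1.78) as a mean over cells, and Isl1 (0.691) and Ppp1r14c (0.619) without Tectb-high cells. Prss56 ranged from 3.85 to 23.7, and Penk fell to 2.06 for members with at least 3 Il33 UMIs. Removing the 133 highest doublet scores (3.26%) took 1 member and 17 other supporting cells. No paired analysis was possible because each age has 1 library. Depth limits genes under 50 UMIs, which were not compared.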
